A study of Mus musculus with 9 samples.

Results

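The genes described here are 41 interferon-stimulated effectors, a set of antiviral, ADP-ribosylating, TRIM, nuclear body, Schlafen, cell death and other interferon-induced genes. They were listed by name, with earlier results of these data known, and found as the gene identifiers that carry those symbols in the GENCODE M21 mouse annotation. All 41 were present among 16962 genes in either deposited table and 15926 in both. The cells were 4T1, a line from a mouse mammary carcinoma, and 9 RNA-seq libraries were made from them: 3 carried the hairpin shYap-1, 3 a different hairpin, shYap-2, and 3 a control hairpin, shCTRL. Both shYap hairpins are directed at Yap1, which encodes the transcriptional co-activator held in check by the Hippo kinases. The labels call the shYap groups a Yap knockdown and the shCTRL group wild type with a negative control, name no further agent or time, and do not say whether replicates were separate cultures or clones. Every p-value therefore measures only the spread between these libraries, which may be technical, and the same 3 shCTRL libraries serve both hairpins.

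Interferons of type I and type III signal through JAK kinases to ISGF3, a transcription factor complex that binds the interferon-stimulated response element (ISRE) in the promoters of its target genes. The proteins made from those genes act at many steps of a viral infection: they hold virions at the membrane, deplete or poison the nucleotide pool, bind viral RNA or DNA, ubiquitinate or ADP-ribosylate proteins, and drive cell death. In tumor cells the same genes are known to be switched on by interferon from neighbouring cells or by the cell's own nucleic acids.

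Yap1 itself averaged 8.77 ± 0.647 FPKM in shYap-1 cells and 10.4 ± 0.626 in shYap-2 cells, against 48.8 ± 0.475 in shCTRL cells (SD, n = 3 each). FPKM, a fragment count scaled to transcript length and library size, is the unit of all levels here. The depth, estimated from the steps between low values, was 19.6 to 28.4 M fragments per library for shYap-1, 21.8 to 27.55 M for shYap-2 and 22.1 to 24.4 M for shCTRL. All 8 epithelial markers examined exceeded 1 FPKM in a group mean, and their summed level was 2522 to 2852 FPKM with shYap-1, 2575 to 2614 with shYap-2 and 2062 to 2186 with shCTRL. On the log2(FPKM + 1) scale Krt14 rose by 1.79 for shYap-1 and by 1.36 for shYap-2, Krt19 by 1.42 and 1.16 and Krt8 by 0.67 and 0.63. Esrp1, in contrast, fell by 0.46 and by 0.38, and Krt18 by 0.19 and by 0.09. Of 15 leukocyte markers, Cd68 alone exceeded 1 FPKM in a group mean, and 4 had no value or were listed at 0 in all libraries. The summed level of the leukocyte markers was 5.14 to 6.14 FPKM with shYap-1, 5.2 to 5.87 with shYap-2 and 8.18 to 8.65 with shCTRL. Most of that sum was Cd68, which fell by 0.75 and by 0.67. With no filter on low values 3 other leukocyte markers were called higher with each hairpin (limma). Among those under 1 FPKM, Csf1r averaged 0.783 FPKM in shYap-1 cells and 0.503 in shYap-2 cells, against 0.19 in shCTRL cells, and Itgam 0.237 and 0.163, against 0.0133 in shCTRL cells. Of 12 fibroblast and endothelial markers, Pdgfra and Acta2 exceeded 1 FPKM, and the summed level was 6.35 to 8.15 FPKM with shYap-1, 5.27 to 5.6 with shYap-2 and 4.43 to 4.75 with shCTRL. In that list Acta2 rose by 2.29 and 1.69, and Pdgfra fell by 0.64 and by 0.60. Acta2 passed the filter on low values through the knockdown libraries alone and so had to differ. The part of these cell types in the results was not tested, and in bulk RNA fewer cells of a type and less RNA per cell cannot be told apart. Replicate 2 of shYap-1 stood apart from its group by the GC content of the genes. Its deviation from the mean of the other libraries of its group correlated with GC content with a Spearman rho of 0.724 (9929 genes, not independent of each other). That rho was -0.402, 0.0153 and 0.407 for shCTRL replicates 1, 2 and 3, and -0.199 to 0.0998 for the shYap-2 libraries. Within the module shYap-1 replicate 2 was the lowest of its group for 27 genes, of median GC content 45.3%, and the highest for 11, of median GC content 55.3%.

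Most of the effectors rose with both hairpins, over a wide range of sizes. Their summed level was 1269, 1282 and 1315 FPKM in the shYap-1 libraries and 1078, 1031 and 1097 in the shYap-2 libraries, against 368.01, 361 and 373 in the shCTRL libraries. Each hairpin was tested against shCTRL with limma on log2(FPKM + 1) over all genes, with Benjamini-Hochberg adjustment and a threshold of 0.05; fold changes are on that scale, which understates the change of low genes. Where a gene has a pair of fold changes, that of shYap-1 is followed by that of shYap-2. With no filter on low values, so that all 41 genes were tested, 37 rose with shYap-1, where 27.9% of all genes were called higher, and 39 rose with shYap-2, where 31.7% were. None of the 41 fell under that setting, at an adjusted or an unadjusted p under 0.05, where 17.6% of all genes were called lower in the shYap-1 fit and 20% in the shYap-2 fit. Because the list was made with earlier results of these data known, its counts beside the shares of all genes are a description, not an independent test. The fits reported below kept genes with at least 1 FPKM in at least 3 of the fitted libraries. In them 37.6% of all genes were called higher and 27.6% lower with shYap-1, and 43.2% higher and 30.5% lower with shYap-2.

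Of the 41 genes, 28 had at least 1 FPKM in every shCTRL library, so that the filter did not depend on the hairpins. Of these, 24 rose with shYap-1 (median log2 fold change 1.60, against 0.07 over all genes tested) and 27 with shYap-2 (median 1.35, against 0.08). A rise of at least 1 on the log2 scale was called for 21 of the 28 in the shYap-1 fit and 19 in the shYap-2 fit, where 8.87% and 6.21% of all genes had one and 3.85% and 2.12% had a fall of that size. A further 11 genes in the shYap-1 fit and 10 in the shYap-2 fit passed the filter through the knockdown libraries and so had to differ. They were Rsad2, Cmpk2, Mx2, Ddx60, Trim30a, Trim34a, Sp110, Phf11d, Ifi44 and Epsti1, with Mx1 in the shYap-1 fit. The calls and p-values given below for these genes carry that limit. Of the rest, Phf11b and Slfn5 were too low to be tested with either hairpin, and Mx1 with shYap-2. Called up with both hairpins were 34 genes; the 7 others were Samhd1, Mx1, Ifi203, Phf11b, Slfn5, Slfn9 and Tor3a.

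**Figure D1:**
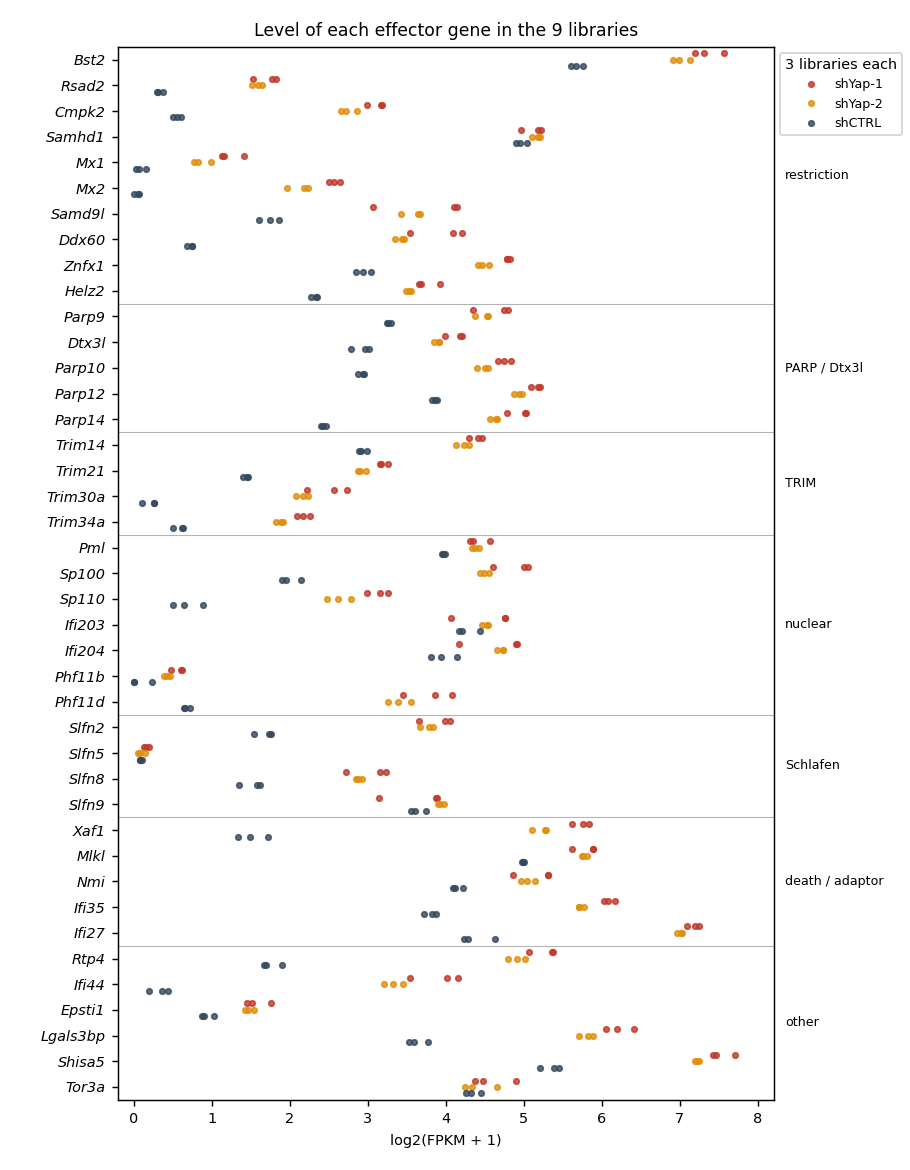
Level of each of the 41 effector genes as log2(FPKM + 1) on the horizontal axis, by role down the page, with 1 point per library for shYap-1, shYap-2 and shCTRL (3 libraries each). Xaf1, Rtp4 and Ifi27 lie far to the right of shCTRL with both hairpins, whereas Samhd1, Ifi203, Slfn9 and Tor3a have shYap-1 points that overlap the range of shCTRL or straddle it.

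Promoter sequences were looked at because ISGF3 acts through a short element in them. RefSeq promoters (GRCm38.p6, 250 bases before to 50 after a start) were at hand for 31 of the 41 genes, in 41 promoters. The core of the ISRE was searched as GAAA, any 2 bases, GAAA on both strands, and it was in a promoter of 12 of the 31 genes (38.7%), against 3.99% of the 27025 genes with a promoter in the table and 3.60% of the 8435 other genes tested here. The longer form, the same core followed by C, which is contained in matches of the core, was in 7 of the 31 (22.6%), against 0.944% of all genes with a promoter. The gamma-activated site, TTCNNNGAA, was in 4 of the 31 (12.9%), against 9.55%. A gene with several promoters has more chances of a match, and a match is a description of letters, not a site shown to be bound.

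The windows that follow hold the core in capitals, 5′ to 3′ on the strand of the gene; TTTC, any 2 bases, TTTC is the same core read on the other strand. Ddx60 and Bst2 are shown for their paired or overlapping cores. Rsad2 and Trim30a are shown as genes under 1 FPKM in every control library and above it in every knockdown library. Phf11b, Slfn5 and Slfn9 are shown because they hold a core although they were not called up with both hairpins. In Bst2 the capitals also take in a gamma-activated site, TTCCAGGAA, that overlaps the first core. Slfn8 and Slfn9 are shown to be compared with each other.
Ddx60, chr8:61928017-61928086, plus strand: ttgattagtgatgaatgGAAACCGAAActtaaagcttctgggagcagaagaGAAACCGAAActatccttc
Bst2, chr8:71537573-71537622, minus strand: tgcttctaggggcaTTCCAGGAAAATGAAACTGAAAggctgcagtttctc
Rsad2, chr12:26456548-26456587, minus strand: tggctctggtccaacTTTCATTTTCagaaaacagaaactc
Trim30a, chr7:104465194-104465253, minus strand: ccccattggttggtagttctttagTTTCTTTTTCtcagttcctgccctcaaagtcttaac
Phf11b, chr14:59341351-59341400, minus strand: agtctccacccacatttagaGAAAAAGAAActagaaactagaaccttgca
Slfn5, chr11:82951927-82951976, plus strand: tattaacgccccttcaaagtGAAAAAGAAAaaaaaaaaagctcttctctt
Slfn8, chr11:83020811-83020910, minus strand: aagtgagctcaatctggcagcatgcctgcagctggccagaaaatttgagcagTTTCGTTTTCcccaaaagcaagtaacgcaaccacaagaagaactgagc
Slfn9, chr11:82991831-82991930, minus strand: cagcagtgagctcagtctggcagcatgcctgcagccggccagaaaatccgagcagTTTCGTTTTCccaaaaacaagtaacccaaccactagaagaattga

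The core was found both among genes called up with both hairpins and among genes that were not. Of 26 genes with a promoter that were called up with both hairpins, 8 held it (Bst2, Ddx60, Rsad2, Shisa5, Slfn8, Trim21, Trim30a and Trim34a). Among these 8, Ddx60, Rsad2, Trim30a and Trim34a passed the filter through the knockdown libraries and so had to differ. Of the 5 with a promoter that were not, 4 held it (Ifi203, Phf11b, Slfn5 and Slfn9), and Samhd1 did not. Ifi203 and Slfn9 were called up with shYap-2 alone, and Phf11b and Slfn5 were too low to be tested. Without a filter, Phf11b was called higher with both hairpins and Slfn5 with shYap-1. Xaf1, Ifi44 and Phf11d had no match in these windows, which says only that these letters are not there.

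**Figure D2:**
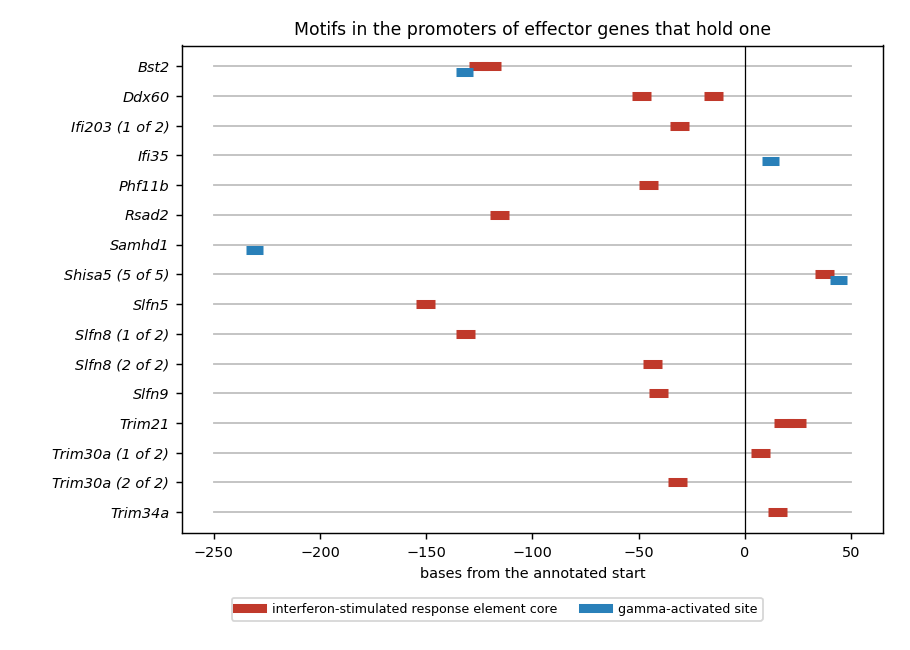
Position of each ISRE core and gamma-activated site, in bases from the annotated start, in the RefSeq promoters of the effector genes that hold one; numbers in brackets tell the promoters of a gene apart. Bst2 has overlapping motifs, Ddx60 a pair of cores, and the cores of Slfn9 and of the second promoter of Slfn8 lie at nearly the same place.

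Restriction factors and nucleotide enzymes rose in the main, with Samhd1 nearly level. Bst2 (tetherin), which holds budding virions at the cell surface, had 144.99, 187.68 and 157.88 FPKM in shYap-1 cells and 126.39, 119.18 and 138.62 in shYap-2 cells, against 49.9, 47.7 and 53.01 in shCTRL cells. Every knockdown library lay above every control, and the log2 fold change against shCTRL was 1.68 for shYap-1 (SE 0.0984, limma, adjusted p = 8.82e-06) and 1.33 for shYap-2 (SE 0.059, adjusted p = 9.89e-08). Ddx60, a DExD/H-box helicase gene with the paired ISRE cores shown above, had 17.48, 10.62 and 16.04 FPKM in shYap-1 cells and 10.03, 9.2 and 9.87 in shYap-2 cells, against 0.68, 0.68 and 0.6 in shCTRL cells. Its libraries did not overlap either, the low shYap-1 value being that of replicate 2, and its fold change was 3.22 (SE 0.169, limma, adjusted p = 5.55e-06) and 2.69 (SE 0.0717, adjusted p = 6.37e-09). That was the largest of these 10 genes on the log2(FPKM + 1) scale, whereas with a pseudocount of 0.1 Mx2 (5.29 and 4.75) stood above Ddx60 (4.27 and 3.70).

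Rsad2 and Cmpk2 are neighbours on chromosome 12, 12.75 kb apart on opposite strands, and encode viperin, which makes a chain-terminating nucleotide, and a nucleoside monophosphate kinase of mitochondria. Rsad2 averaged 2.28 ± 0.346 FPKM in shYap-1 cells and 2.0 ± 0.14 in shYap-2 cells, against 0.253 ± 0.0321 in shCTRL cells (SD, n = 3 each), and rose by 1.38 and 1.26 on the log2 scale. Cmpk2 averaged 7.66 ± 0.641 FPKM in shYap-1 cells and 5.73 ± 0.499 in shYap-2 cells, against 0.467 ± 0.0551 in shCTRL cells, and rose by 2.56 and 2.20. Both were under 1 FPKM in every control library and above it in every knockdown library. Samhd1, which encodes a dNTP hydrolase, had 36.18, 30.17 and 35.17 FPKM in shYap-1 cells and 35.96, 33.54 and 35.39 in shYap-2 cells, against 31.92, 28.79 and 29.94 in shCTRL cells. The shYap-1 libraries overlapped the controls, replicate 2 being the lowest, and the shYap-2 libraries lay above them. Its log2 fold change came to 0.16 with shYap-1 (limma, adjusted p = 0.142), or 0.23 without replicate 2 (adjusted p = 0.00623), and 0.20 with shYap-2 (adjusted p = 0.00438).

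Mx1 and Mx2, genes of dynamin-like GTPases that block incoming virus, lie 72.4 kb apart on chromosome 16; the annotation classes Mx2 as a polymorphic pseudogene, one that is intact in some mouse strains. Mx1 had 1.18, 1.22 and 1.66 FPKM in shYap-1 cells and 0.99, 0.7 and 0.76 in shYap-2 cells, against 0.05, 0.11 and 0.02 in shCTRL cells. All 6 knockdown libraries were above the controls at a level near the filter. It rose by 1.15 with shYap-1 (limma, adjusted p = 6.99e-05); with shYap-2 it failed the filter, and without a filter its log2 fold change came to 0.77 (adjusted p = 0.000105). Mx2 had 4.9, 4.66 and 5.23 FPKM in shYap-1 cells and 3.53, 2.9 and 3.69 in shYap-2 cells, against 0.05, 0.04 and 0 in shCTRL cells, and rose by 2.52 and 2.08. The others of this role rose with both hairpins by 1.20 to 2.04: Samd9l, an antiproliferative and antiviral gene (2.04 and 1.84), Znfx1, a helicase that senses double-stranded RNA (1.86 and 1.54), and Helz2, a helicase and nuclear receptor co-activator (1.43 and 1.20).

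**Figure D3:**
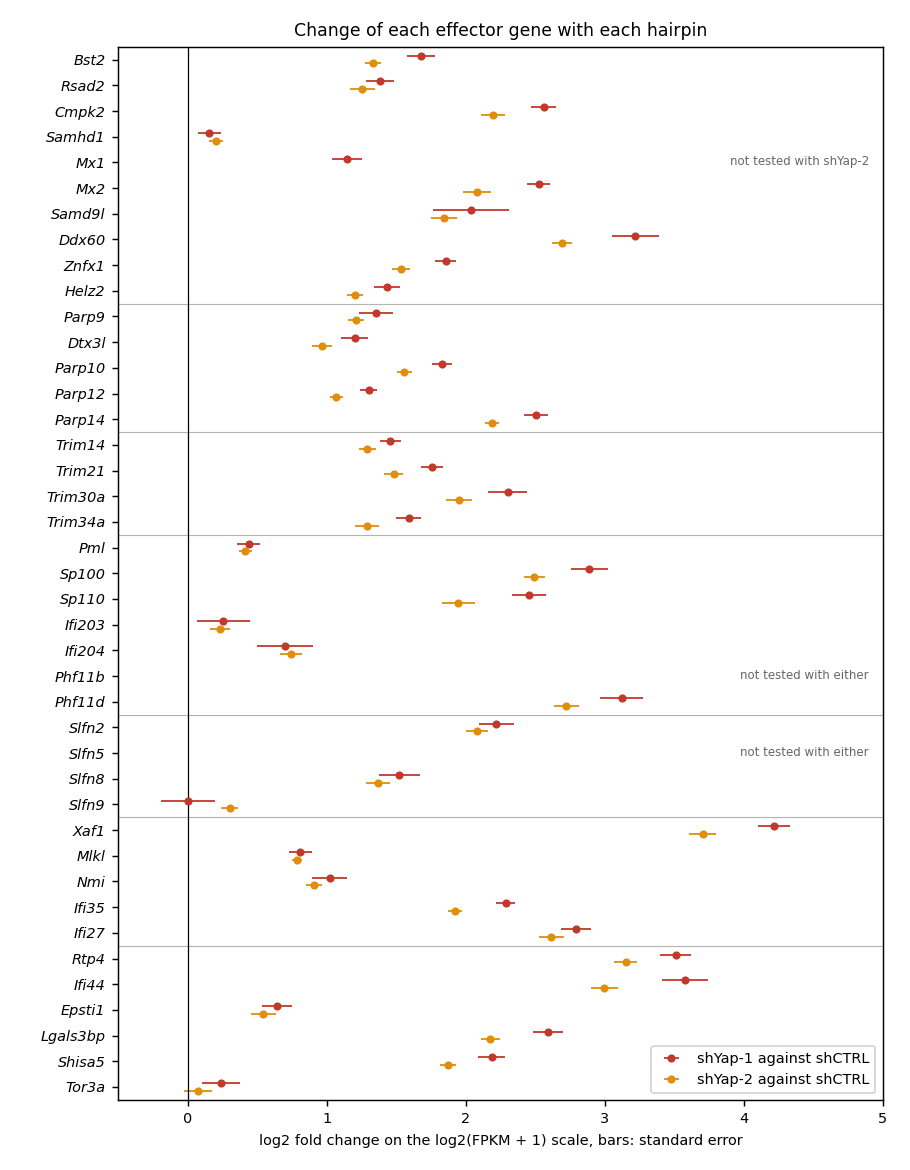
Log2 fold change on the log2(FPKM + 1) scale of each effector gene for shYap-1 and shYap-2 against shCTRL, with bars of 1 standard error from limma (3 libraries per group) and the genes ordered by role. The values run to 4.22 with shYap-1 and 3.70 with shYap-2, both for Xaf1.

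All 5 genes of ADP-ribosylation rose with both hairpins. PARP9 and DTX3L form a heterodimer that ADP-ribosylates ubiquitin, and Parp10, Parp12 and Parp14 encode mono-ADP-ribosyltransferases. Parp14 had 31.35, 26.47 and 31.46 FPKM in shYap-1 cells and 23.92, 22.77 and 24.18 in shYap-2 cells, against 4.51, 4.29 and 4.39 in shCTRL cells. The 3 groups did not overlap, and the rises of 2.51 (SE 0.0865, limma, adjusted p = 1.26e-06) and 2.19 (SE 0.0527, adjusted p = 4.51e-09) were the largest of these 5. Dtx3l rose least, with 17.18, 14.82 and 17.39 FPKM in shYap-1 cells and 14.05, 13.36 and 14.02 in shYap-2 cells, against 6.81, 7.1 and 5.88 in shCTRL cells. Its knockdown libraries were all above the controls, by 1.20 (adjusted p = 3.56e-05, limma) and 0.97 (adjusted p = 2.12e-06) on the log2 scale. Parp9 rose by 1.36 and 1.21, Parp10 by 1.83 and 1.56, and Parp12, which acts at the Golgi, by 1.3 and 1.07. Parp9, Dtx3l and Parp14 are neighbours on chromosome 16, where Parp9 and Dtx3l overlap by 458 exonic bases on opposite strands; the use of strand in counting is not given in the sources used here, so reads of that stretch cannot be assigned to one of them. Other annotated genes likewise cover 1356 exonic bases of Trim14, 609 of Trim34a, 559 of Slfn5, 290 of Ifi35 and a stretch of Sp110 between these in length on the opposite strand, and 296 of Rtp4 and 205 of Parp10 on the same strand, among shorter overlaps.

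Of the 12 other PARP genes, the shYap-1 fit called 4 higher and 5 lower (median log2 fold change -0.14), and the shYap-2 fit called 4 higher and 6 lower (median -0.11), counts to be read beside the shares of all genes, 37.6% higher and 27.6% lower with shYap-1 and 43.2% and 30.5% for shYap-2. Parp3, which acts in repair of DNA breaks, rose by 2.02 and 1.83, whereas Parp1, the main poly-ADP-ribosylating enzyme at DNA damage, fell by 0.62 and by 0.42. Of the Deltex relatives of Dtx3l, 3 were tested: Dtx2 (0.45 and 0.35) and Dtx3 (0.54 and 0.37) rose, and Dtx4 fell by 0.13 in the shYap-2 fit (adjusted p = 0.044, limma) and was not called in the shYap-1 fit (adjusted p = 0.911). Parp1 averaged 39.1 ± 0.381 FPKM in shYap-1 cells and 45.2 ± 0.969 in shYap-2 cells, against 60.8 ± 0.866 in shCTRL cells (SD, n = 3 each).

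All 4 TRIM genes of the module rose with both hairpins, but Trim30a and Trim34a passed the filter through the knockdown libraries and so had to differ. TRIM proteins are mostly RING ubiquitin ligases. Trim30a, a mouse gene reported to restrain NF-kB signalling, had 4.93, 3.66 and 5.67 FPKM in shYap-1 cells and 3.7, 3.23 and 3.49 in shYap-2 cells, against 0.2, 0.07 and 0.2 in shCTRL cells. These groups lay far apart from the controls, and the log2 fold change came to 2.30 (limma, adjusted p = 1.06e-05) and 1.95 (adjusted p = 1.36e-07), the largest of the 4. Trim14, whose protein lacks a RING and acts as an adaptor at mitochondria, had 18.56, 21.1 and 20.25 FPKM in shYap-1 cells and 17.83, 18.72 and 16.55 in shYap-2 cells, against 6.55, 6.94 and 6.4 in shCTRL cells. It rose by 1.46 and 1.29, the smallest fold change of the 4 with shYap-1. Trim21, a cytosolic antibody receptor, rose by 1.76 and 1.48, and Trim34a by 1.59 and 1.29. Of 50-base stretches of Trim34a transcripts, 59.7% are shared with another gene, mainly its copy Trim34b, and 33.9% of those of Trim14 are shared with other genes, the overlapping gene Nans among them, so how fragments were divided between these genes is uncertain.

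The list of other TRIM genes has 65 symbols, of which 30 were tested. The shYap-1 fit called 14 of these higher and 7 lower, and the shYap-2 fit 16 higher and 8 lower, where 37.6% and 43.2% of all genes were called higher and 27.6% and 30.5% lower. Trim12c rose by 1.92 and 1.71, and Trim25, the ligase that acts on RIG-I, by 1.23 and 1.12, whereas Trim65 fell by 0.68 and by 0.47. Trim46 fell by 1.04 and by 1.08, but it passed the filter through the shCTRL libraries alone and so had to differ. Likewise Trim34b and Trim6, counted among those called higher, passed it only with the knockdown libraries. In levels, Trim25 stood at 58.8 ± 7.28 FPKM in shYap-1 cells and 54.4 ± 1.3 in shYap-2 cells, against 24.5 ± 1.79 in shCTRL cells (SD, n = 3 each), above each of the 4 TRIM genes of the module.

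Genes of nuclear bodies and nuclear DNA binding rose by very different amounts. Pml, the scaffold of the nuclear bodies that bear its name, rose by 0.44 with shYap-1 (limma, adjusted p = 0.00251) and 0.41 with shYap-2 (adjusted p = 3.17e-05). Sp100 and Sp110, which encode components of those bodies and lie 51.2 kb apart on chromosome 1, had larger fold changes: Sp100 rose by 2.89 and 2.49, and Sp110 by 2.45 and 1.95. In levels Pml stood at 20.2 ± 2.09 FPKM in shYap-1 cells and 19.8 ± 0.602 in shYap-2 cells, against 14.6 ± 0.174 in shCTRL cells. Sp100 averaged 28.9 ± 4.78 FPKM in shYap-1 cells and 21.5 ± 0.904 in shYap-2 cells, against 3.01 ± 0.372 in shCTRL cells, far below Pml in control cells and close to it with shYap-2. For Sp110, 42.3% of its 50-base stretches are shared with other genes.

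Ifi203 and Ifi204 belong to the IFI200 family, whose HIN domains bind DNA. Ifi203 had 26.11, 15.75 and 26.12 FPKM in shYap-1 cells and 22.18, 21.07 and 21.96 in shYap-2 cells, against 20.66, 17.51 and 17.04 in shCTRL cells. Replicate 2 of shYap-1 was the lowest of all 9 libraries and replicates 1 and 3 the highest. The log2 fold change came to 0.26 with shYap-1 (limma, adjusted p = 0.27), or 0.49 without replicate 2 (adjusted p = 0.00107), and 0.23 with shYap-2 (adjusted p = 0.0137). The shYap-2 call was lost with median-of-ratios scaling, in the fit of all 9 libraries and without shCTRL replicate 2. Ifi204, a DNA sensor gene, averaged 24.96 ± 6.88 FPKM in shYap-1 cells and 25.1 ± 0.823 in shYap-2 cells, against 14.7 ± 1.86 in shCTRL cells. It rose by 0.70 with shYap-1 (adjusted p = 0.0179, limma), or 0.94 without replicate 2, and by 0.75 with shYap-2; the call with shYap-1 ended without replicate 1 or 3 of shYap-1 or replicate 2 or 3 of shCTRL.

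Of 4 other IFI200 genes that were tested, 3 rose with shYap-1 and 4 with shYap-2, where 37.6% and 43.2% of all genes were called higher. Ifi205 and Ifi209 passed the filter through the knockdown libraries alone. Ifi205 averaged 4.12 ± 1.01 FPKM in shYap-1 cells and 2.41 ± 0.42 in shYap-2 cells, against 0.08 ± 0.02 in shCTRL cells, and rose by 2.22 and 1.65. Ifi209 rose by 2.03 and 2.01. Of 50-base stretches, 20.0% in Ifi204 and 12.4% in Ifi203 are shared with other genes.

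Phf11b and Phf11d, neighbouring PHD finger genes 6.06 kb apart on chromosome 14, stood at different levels. Phf11d had 13.49, 9.95 and 15.9 FPKM in shYap-1 cells and 10.77, 8.56 and 9.43 in shYap-2 cells, against 0.65, 0.58 and 0.56 in shCTRL cells. Each knockdown library was far above the controls, and the rise of 3.12 (SE 0.154, limma, adjusted p = 4.54e-06) and 2.72 (SE 0.09, adjusted p = 2.01e-08) was the largest of this role. Phf11b had 0.54, 0.39 and 0.52 FPKM in shYap-1 cells and 0.38, 0.34 and 0.31 in shYap-2 cells, against 0, 0 and 0.17 in shCTRL cells. The groups did not overlap, but all values were under the filter; without it the log2 fold change came to 0.49 (limma, adjusted p = 0.00217) and 0.35 (adjusted p = 0.00384). Since 47.1% of the 50-base stretches of Phf11b are shared with other genes, its low values are uncertain.

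The 4 Schlafen genes, which lie together on chromosome 11 between 82951349 and 83070678 in GRCm38, had unequal fold changes. Schlafens are RNA-binding proteins, several of which cleave or guard tRNA. Slfn2, needed in mice for the quiescence of T cells, had 15.62, 11.57 and 14.84 FPKM in shYap-1 cells and 11.7, 12.73 and 13.22 in shYap-2 cells, against 2.39, 1.92 and 2.31 in shCTRL cells. Both knockdown groups lay above the controls, by 2.22 (SE 0.125, limma, adjusted p = 7.45e-06) and 2.08 (SE 0.08, adjusted p = 4.79e-08). Slfn8 averaged 7.28 ± 1.48 FPKM in shYap-1 cells and 6.37 ± 0.207 in shYap-2 cells, against 1.86 ± 0.28 in shCTRL cells, and rose by 1.52 and 1.37.

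Slfn9, 10.3 kb from Slfn8 on the same strand, had the higher level in control cells and was called with shYap-2 but not with shYap-1. It had 13.59, 7.86 and 13.76 FPKM in shYap-1 cells and 13.96, 14.19 and 14.72 in shYap-2 cells, against 12.35, 11.16 and 10.78 in shCTRL cells. The shYap-2 libraries all lay above the controls, and shYap-1 replicate 2 was below them while replicates 1 and 3 were above. Its log2 fold change came to -0.0011 with shYap-1 (limma, adjusted p = 0.997), or 0.24 without replicate 2 (adjusted p = 0.016), and 0.30 with shYap-2 (adjusted p = 0.00152), a call that was lost in the fit of all 9 libraries. The 100 bases before the starts of Slfn8 and Slfn9 shown above align with 89 identities, 8 mismatches and 6 gaps (86.4% of 103 columns), and both hold the same core, TTTCGTTTTC, at -48 to -39 in Slfn8 and -45 to -36 in Slfn9, counted from the start. The difference between the fold changes of Slfn8 and Slfn9 was not tested, and 14.6% of the 50-base stretches of Slfn8 and 11.9% of those of Slfn9 are shared with other genes. Of the other Schlafen genes, Slfn3 alone was tested, and it was not called (-0.23, adjusted p = 0.0897, and -0.08, adjusted p = 0.225, limma). Slfn5, also with a core, was near the limit of detection, with 0.14, 0.11 and 0.09 FPKM in shYap-1 cells and 0.04, 0.06 and 0.1 in shYap-2 cells, against 0.06, 0.06 and 0.07 in shCTRL cells. The shYap-2 values overlapped the controls; without a filter the log2 fold change came to 0.07 with shYap-1 (limma, adjusted p = 0.0487) and 0.0 with shYap-2 (adjusted p = 0.902).

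Genes of cell death and signalling adaptors held the largest rise of the module on the log2(FPKM + 1) scale, that of Xaf1; with a pseudocount of 0.1 Ifi44 (5.35 and 4.72) and Mx2 (5.29 and 4.75) stood above Xaf1 (4.75 and 4.22). Xaf1, whose protein binds and opposes the caspase inhibitor XIAP, had 53.33, 47.97 and 55.88 FPKM in shYap-1 cells and 37.71, 33.4 and 37.84 in shYap-2 cells, against 2.3, 1.8 and 1.53 in shCTRL cells. The 3 groups were separate from each other, and the log2 fold change came to 4.22 (SE 0.114, limma, adjusted p = 7.08e-07) and 3.70 (SE 0.0983, adjusted p = 6.37e-09). Mlkl, the pseudokinase that executes necroptosis, was already abundant in control cells and rose least of this role. Its FPKM was 58.34, 48.23 and 57.89 in shYap-1 cells and 55.27, 52.57 and 53.34 in shYap-2 cells, against 30.56, 30.7 and 30.91 in shCTRL cells. All 6 knockdown libraries exceeded the controls, by 0.81 (adjusted p = 0.00011, limma) and 0.79 (adjusted p = 1.23e-07), with a nearly equal level for both hairpins.

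Ifi35 and Nmi encode partners that bind each other through their NID domains. Ifi35 had 64.31, 70.65 and 66.68 FPKM in shYap-1 cells and 53.54, 51.16 and 51.38 in shYap-2 cells, against 12.22, 13.12 and 13.61 in shCTRL cells. The 3 groups did not overlap, with rises of 2.29 and 1.92 on the log2 scale. Nmi rose by 1.02 and 0.91, to 35.1 ± 6.04 FPKM in shYap-1 cells and 32.1 ± 1.96 in shYap-2 cells, against 16.6 ± 0.822 in shCTRL cells (SD, n = 3 each). Ifi27, a small hydrophobic protein of mitochondria and the nuclear envelope, had 135.67, 150.82 and 145.42 FPKM in shYap-1 cells and 127.8, 129.01 and 124.21 in shYap-2 cells, against 17.79, 18.54 and 23.84 in shCTRL cells. Its rise was 2.79 (limma, adjusted p = 1.9e-06) and 2.61 (adjusted p = 2.75e-08). Of the related genes of nuclear bodies, PHF11 and IFI27, 4 were tested. Among them Sp140 rose by 2.21 and 1.85 and Daxx by 0.74 and 0.53, and Atrx fell by 0.65 and by 0.63. Sp140 passed the filter only with the knockdown libraries.

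**Figure D4:**
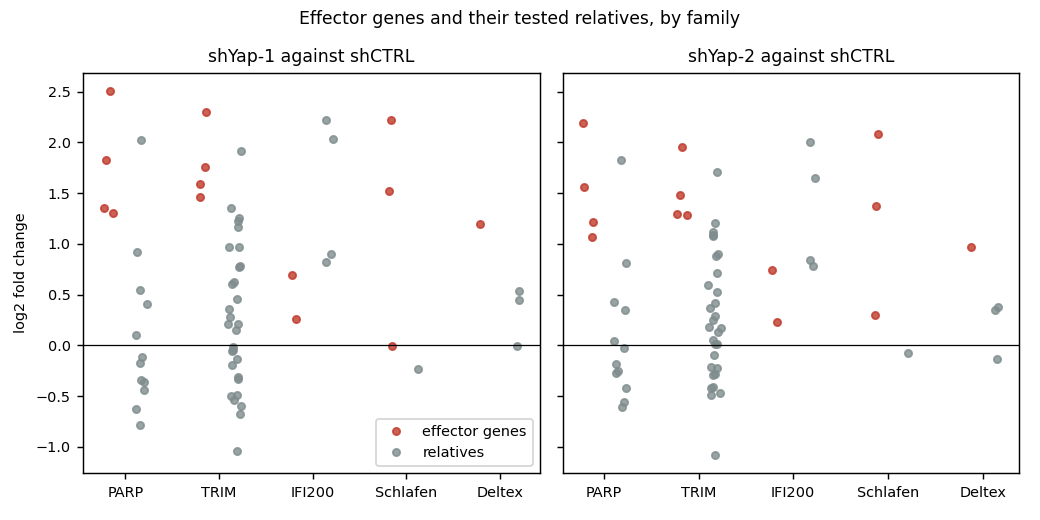
Log2 fold change against shCTRL, on the log2(FPKM + 1) scale, of the effector genes (red) and their tested relatives (grey) in 5 gene families, with 1 point per gene, for shYap-1 (left) and shYap-2 (right). The effector PARP and TRIM genes all lie above 0, whereas their relatives lie on both sides of it.

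Among the remaining 6 genes, 5 rose with both hairpins, of which Ifi44 and Epsti1 passed the filter through the knockdown libraries. Ifi44 had 15.11, 10.68 and 16.81 FPKM in shYap-1 cells and 8.97, 8.2 and 9.93 in shYap-2 cells, against 0.28, 0.14 and 0.35 in shCTRL cells. Its groups did not overlap, and it rose by 3.58 (SE 0.163, limma, adjusted p = 3.23e-06) and 3.0 (SE 0.0974, adjusted p = 1.83e-08). Rtp4, a chaperone of G protein-coupled receptors at the Golgi, rose by 3.51 and 3.15. Shisa5, an endoplasmic reticulum protein also known as scotin, was the most abundant gene of the module over the knockdown libraries, with 170.81, 208.34 and 176.01 FPKM in shYap-1 cells and 148.63, 144.95 and 151.26 in shYap-2 cells, against 36.01, 40.81 and 42.55 in shCTRL cells. Lgals3bp, a secreted galectin-binding glycoprotein, had 65.62, 83.98 and 72.3 FPKM in shYap-1 cells and 55.65, 51.36 and 57.99 in shYap-2 cells, against 10.54, 11.02 and 12.62 in shCTRL cells. In both genes the shYap-2 libraries lay between the other groups without overlap; Shisa5 rose by 2.19 and 1.87 and Lgals3bp by 2.59 and 2.18. Epsti1, first described as a stromal interaction gene of breast epithelium, rose by 0.64 and 0.54, with averages of 1.99 ± 0.353 FPKM in shYap-1 cells and 1.78 ± 0.123 in shYap-2 cells, against 0.91 ± 0.106 in shCTRL cells.

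Tor3a, an ATPase gene of the torsin family, was the one tested member with no call under either hairpin. It had 19.74, 28.73 and 21.19 FPKM in shYap-1 cells and 17.91, 19.25 and 24.25 in shYap-2 cells, against 18.11, 20.77 and 19.01 in shCTRL cells. Both groups overlapped the controls, and in shYap-1 the high value was that of replicate 2. The log2 fold change came to 0.24 with shYap-1 (SE 0.137, limma, adjusted p = 0.161), or 0.08 without that library (adjusted p = 0.32), and 0.07 for shYap-2 (SE 0.101, adjusted p = 0.535).

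Most effectors had a slightly lower level with shYap-2 than with shYap-1. In a fit of all 9 libraries, 36 of 39 tested genes had a negative difference, shYap-2 minus shYap-1, with a median of -0.27, where 50.1% of 10733 genes were negative. The difference passed the test for 7 genes, all lower with shYap-2, where 1.36% of all genes were called lower and 1.93% higher. Xaf1 differed by -0.52 (SE 0.102, limma, adjusted p = 0.0305), Mx2 by -0.44 (SE 0.0897, adjusted p = 0.033), Lgals3bp by -0.42 (adjusted p = 0.0498), Ifi35 by -0.36 (adjusted p = 0.0146), Znfx1 by -0.32 (adjusted p = 0.0358), Parp14 by -0.32 (adjusted p = 0.0497) and Parp12 by -0.23 (adjusted p = 0.0498). The positive values were those of Slfn9 (0.30, adjusted p = 0.361, limma), Samhd1 (0.05, adjusted p = 0.77) and Ifi204 (0.05, adjusted p = 0.92). These calls turned on single libraries: without shYap-1 replicate 2, 26 of 38 tested genes were called lower with shYap-2, where 7.10% of all genes were, and without shYap-1 replicate 3 or any one shYap-2 library, 0 were, while 19 to 23 had an unadjusted p under 0.05. The shares of all genes called lower were 0.224% without shYap-1 replicate 3, and 0.00934%, 0% and 0% without shYap-2 replicates 1, 2 and 3. In a fit of the 6 knockdown libraries 0 of all 10608 genes were called, the effectors among them. The lack of calls in these fits is thus not particular to the effectors. In the fit of the 6 libraries, 24 effectors had an unadjusted p under 0.05. The share of all genes past that unadjusted threshold was not counted in any of these fits. The unadjusted counts therefore do not set the effectors apart from other genes. Yap1 itself had a difference of 0.22 that missed the threshold (adjusted p = 0.0992, limma).

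**Figure D5:**
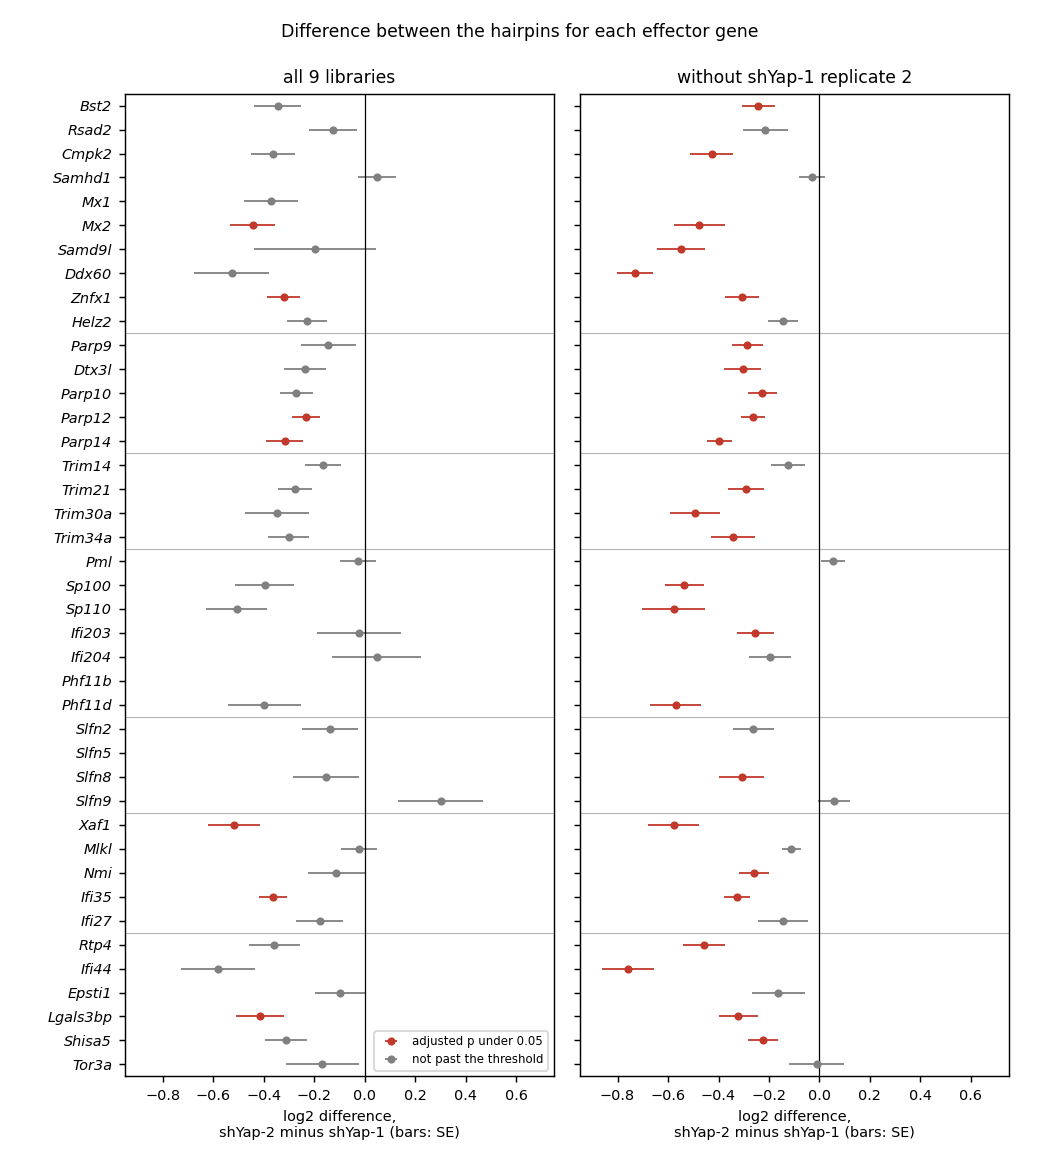
Difference in log2(FPKM + 1) of each effector gene, shYap-2 minus shYap-1, with bars of 1 standard error from limma, by role, in the fit of all 9 libraries (left) and without shYap-1 replicate 2 (right); red points passed the adjusted threshold of 0.05. On the left 36 of 39 genes lie below 0 and 7 passed, and on the right 26 of 38 passed.

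Upstream of the effectors, the ISGF3 genes rose and the interferon genes were at or near 0. Of 15 interferon genes listed, 4 had values, Ifnab in the shYap-1 table alone, and none reached the filter. Ifnb1 had 0.05, 0.07 and 0.05 FPKM in shYap-1 cells and 0.05, 0.24 and 0.06 in shYap-2 cells, and was listed at 0 in all 3 shCTRL libraries. These levels lie far under the filter, and no fold change is given; without a filter Ifnb1 was called higher with shYap-1, as 1 of the 4, and 0 of 3 were with shYap-2 (limma). Of 9 genes of receptors and JAK kinases, the shYap-1 fit called 6 higher and 1 lower (median log2 fold change 0.32). Among all genes tested there, 37.6% were called higher and 27.6% lower (median 0.07). The shYap-2 fit called 7 of the 9 higher and 2 lower (median 0.38), beside 43.2% and 30.5% of all genes (median 0.08). The type I receptor genes moved little: Ifnar1 rose by 0.32 and 0.23, and Ifnar2 had 0.03 with shYap-1 (adjusted p = 0.69, limma) and fell by 0.16 with shYap-2 (adjusted p = 0.0291).

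Of 8 genes of ISGF3 and its feedback, 6 rose with each hairpin, where 37.6% (shYap-1) and 43.2% (shYap-2) of all genes were called higher. Socs3 fell with shYap-2 (by 0.27). Irf7 and Usp18 passed the filter through the knockdown libraries and so had to differ. Stat2, a subunit of ISGF3, rose by 1.56 and 1.3, and Irf9, its DNA-binding subunit, by 2.21 and 1.99. Irf7, an inducible activator of interferon genes, had 58.77, 72.31 and 65.42 FPKM in shYap-1 cells and 44.57, 41.8 and 51.03 in shYap-2 cells, against 0.61, 0.8 and 1.05 in shCTRL cells. It rose by 5.19 and 4.69, and it too was lower with shYap-2 (difference -0.51, limma, adjusted p = 0.0419). Usp18, the feedback inhibitor at the type I receptor, rose by 4.45 and 3.83 and differed by -0.62 (adjusted p = 0.0241). As among the effectors, these calls between hairpins rest on the fit: of the 8 genes, 0 were called with a pseudocount of 0.1, in a fit of the 6 knockdown libraries, or without shYap-1 replicate 3 or any one shYap-2 library. Of all genes, 2.78% were called with that pseudocount, 0% with the 6 libraries, and 0.00933% to 0.748% without 1 of those libraries.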

How the data were processed

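Per the labels' protocols, RNA taken up in Trizol was enriched with oligo(dT) and sequenced on a Novaseq6000 after library preparation with NEBNext Ultra reagents. The authors deposited FPKM values per gene in 2 tables, 1 per hairpin, both with the 3 shCTRL libraries, of whose values 0 differ between tables. The submitters' processing notes list StringTie 1.3.4, HISAT2 2.1.0, fastp 0.18.0, RSEM and the build mm10. How strand was used, which annotation served and what was filtered are not given in the sources used here.

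Symbols, positions, GC content and shared 50-base stretches came from GENCODE M21 (GRCm38) and promoters from RefSeq (GRCm38.p6). Models were fitted on log2(FPKM + 1) with limma 3.58.1 (R 4.3.3, moderated with a trend on abundance) over every gene that reached 1 FPKM in 3 or more libraries of the fit, with Benjamini-Hochberg adjustment. Each hairpin was tested within its table (10647 and 10615 genes tested), and shYap-2 against shYap-1 in a fit of all 9 libraries. With 3 libraries against 3, an exact permutation test could not go below p = 0.1, so smaller values rest on the model. Depth was estimated as the one that makes FPKM times length whole numbers of fragments in low genes; it covers counting error only. The members, roles and lists were chosen with earlier results of these data known. Values in every library are given for the largest and smallest shYap-1 fold change in each role, the 5 most abundant members, and each member not called up with both hairpins. Deviations from the group means correlated across genes at -0.310 to 0.390 between same-numbered replicates of different groups, and at -0.442 to 0.394 between the others. These values do not settle whether the numbers pair libraries, and the reported fits used no pairing. Python 3.11.15 was used for tables and sequences. The alternatives were no filter or a filter at 5 FPKM, a pseudocount of 0.1, scaling by a trimmed mean or by the median of ratios, limma with no trend, a replicate block, a GC trend (lowess) removed, a size threshold of 1, other sets of libraries in the fit and each library left out. Some genes of the pathway and family lists are counted with their list and not reported here by name.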

Additional observations from a re-analysis of the deposited data

Results flagged for a closer look

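The 7 effector genes that differed between the hairpins in the fit of all 9 libraries (limma, Benjamini-Hochberg adjusted p under 0.05), as shYap-2 minus shYap-1 on the log2 scale, were Mx2 (-0.44), Znfx1 (-0.32), Parp12 (-0.23), Parp14 (-0.32), Xaf1 (-0.52), Ifi35 (-0.36) and Lgals3bp (-0.42). In each of them the shYap-2 libraries were all below the shYap-1 libraries, as in 23 of the 41 effectors. For the 7 that follows largely from how they were picked. The share of all genes separated in this way was not counted. Yap1 averaged 10.4 FPKM with shYap-2 and 8.77 with shYap-1, and the part of that in these differences was not tested. Replicate 2 of shYap-1, which stood apart by GC content, was the highest of its group for Znfx1, Ifi35 and Lgals3bp and the lowest for Mx2, Parp12, Parp14 and Xaf1.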

How the results depend on the processing

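Against shCTRL the count of effector genes called stayed within 1.5 times its value under every alternative run: 35 with shYap-1 (35 with the replicate block, 36 with the GC trend removed, 24 to 35 with a library left out) and 37 with shYap-2 (37 with the block, 28 to 37 with a library left out), with 0 called lower. The lower ends come where the filter, still 3 libraries, left 29 genes to test. Median-of-ratios scaling left 36 with shYap-2, and gave 3915 calls higher and 3888 lower over all genes there, where the reported fit gave 4586 and 3237; the GC removal gave 3992 and 3886. Gene by gene, Ifi203 with shYap-2 lost its call under that scaling, in a fit of all 9 libraries and without shCTRL replicate 2, and Slfn9 with shYap-2 lost its call in the fit of all 9 libraries.

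The 7 differences between hairpins were the least stable result. They became 2 with a pseudocount of 0.1, 3 with no filter, 4 with the replicate block, 23 with the GC trend removed, and 0 in a fit of the 6 knockdown libraries (24 at an unadjusted p under 0.05) or with a size threshold of 1, and with a library left out they ranged from 0 to 26. In the same order, 0.941%, 0.792%, 0.512%, 5.23%, 0% and 0% of all genes were called lower. With a library left out that share ranged from 0% to 7.10%. The share of all genes at an unadjusted p under 0.05 was not counted. In the pathway and family lists, 51 genes were called with shYap-1, 60 with shYap-2 and 3 between hairpins, higher and lower together. These counts are to be read beside the shares of all genes called, 65.2%, 73.7% and 3.29%. With a size threshold of 1 the counts were 16, 16 and 0, where 12.7%, 8.33% and 0.00932% of all genes were called. The 3 became 1 with a pseudocount of 0.1 or no trend, 8 with the GC trend removed, 0 with the 6 libraries, and 0 to 14 with a library left out. The cause of these moves was not tested.

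Signs turned where values were near 0. With the GC trend removed, Slfn9 had 0.080 with shYap-1, Tor3a -0.035 with shYap-2 and Pml 0.0014 between hairpins, and Tor3a had -0.011 with median-of-ratios scaling. With a library left out, Slfn9 with shYap-1 ranged from -0.13 to 0.24 and Tor3a with shYap-2 from -0.051 to 0.16. Between hairpins, the ranges were -0.25 to 0.093 for Ifi203, -0.20 to 0.17 for Ifi204, -0.11 to 0.023 for Mlkl, -0.074 to 0.054 for Pml and -0.029 to 0.098 for Samhd1. Depth limits Slfn5, Phf11b and the interferon genes, all under 1 FPKM.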
